A study of Mus musculus with 9 samples.

Results

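The mRNA of the 8 enzymes of the pentose phosphate pathway was followed across 9 pancreatic tumors, sequenced whole, from KPC mice, a genetically engineered model of pancreatic ductal adenocarcinoma. The enzymes were taken by gene symbol from a table of 54453 gene rows: Rpia, Rpe, Tkt and Taldo1 of the non-oxidative branch, and G6pdx, H6pd, Pgls and Pgd of the oxidative branch. All 8 passed the filter on low counts that left 16169 genes for testing. Rpia was singled out because it had separated the genotypes in these same tumors, so its values are given as a description with no test. The other 7 came with it as enzymes of the same pathway.

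The series compared 4 tumors labelled Scrib WT, with the genotype KPF/+C, and 5 tumors labelled Scrib null, with the genotype KPF/+CSF/F. The protein made from Scrib is a scaffold of epithelial cell polarity. The labels do not spell out the letters of the genotype, the driver of the recombinase or the age of the mice. By convention KPC mice carry tumor-driving alleles that are switched in the pancreas by Cre recombinase, so both groups share that background and stromal cells of a tumor would keep their Scrib alleles. Tumors are named here by genotype and by the number in the labels: WT 2, 3, 6 and 9, and null 7, 14, 15, 18 and 23.

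The pentose phosphate pathway branches from glycolysis at glucose 6-phosphate. Its oxidative branch yields NADPH, which cells spend on lipid synthesis and on keeping glutathione reduced, and ends in ribulose 5-phosphate. At that metabolite the non-oxidative branch begins: ribose 5-phosphate isomerase, the product of Rpia, makes ribose 5-phosphate for nucleotides, and ribulose phosphate 3-epimerase, the product of Rpe, makes xylulose 5-phosphate. Transketolase (Tkt) and transaldolase (Taldo1) then shuffle carbon between these sugars and glycolysis, in either direction.

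Because Rpia and Rpe compete for one substrate and differed in their pattern over the tumors, the sequences before their start sites are shown side by side. Both are in the GRCm38.p6 build, credited to RefSeq, and run 5′ to 3′ on the strand of the gene. The Rpia stretch covers chr6:70792233-70792425 on the minus strand and the Rpe stretch covers chr1:66700581-66700830 on the plus strand, and both lie outside the transcribed span of the GENCODE gene. Capitals mark the GC box GGGCGG, read on either strand.
Rpia: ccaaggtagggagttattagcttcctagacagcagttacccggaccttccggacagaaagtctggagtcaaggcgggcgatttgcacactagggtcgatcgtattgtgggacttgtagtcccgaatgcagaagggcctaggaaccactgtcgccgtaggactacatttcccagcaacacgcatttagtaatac
Rpe: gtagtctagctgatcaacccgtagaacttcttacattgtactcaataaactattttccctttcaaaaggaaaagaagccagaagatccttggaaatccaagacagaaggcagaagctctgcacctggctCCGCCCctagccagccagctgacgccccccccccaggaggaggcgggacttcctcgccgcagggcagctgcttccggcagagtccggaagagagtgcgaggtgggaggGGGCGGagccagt
The Rpe stretch of 250 bases holds 2 GC boxes and the shorter Rpia stretch of 193 bases none. The 300-base Rpia window, from 250 bases before to 50 after the start, holds 1. Over all 32851 promoter windows of that length, 35.7% hold a GC box. Among the members it also occurred in windows of G6pdx, Pgls, Pgd, Tkt and Taldo1, and in none of H6pd. GC content was 60.7% in the Rpia window and 60.3% in the Rpe window, against a median of 52.7% over all windows. The E-box CACGTG, a motif bound by Myc, occurred in none of the members' windows and in 7.15% of all windows. The core of the antioxidant response element, TGACNNNGC, bound by NRF2, occurred once in a window of G6pdx and once in a window of Pgd, and in 12.4% of all windows. TATAAA was found in no member and in 13.6% of windows. CCAAT was found in windows of Rpe, H6pd, Pgd and Taldo1 and in 37.4% of all windows. Each motif was searched on both strands. These matches describe letters and say nothing of binding in the tumors.

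Rpia mRNA was about level in the tumors labelled WT and higher in every tumor labelled null. Levels are given as CPM, the estimated reads of a gene in each 1000000 of its library, with libraries scaled to each other. Rpia, on chromosome 6 from 70765720 to 70792232 (GRCm38, minus strand), had 36.0, 34.2, 34.6 and 32.3 CPM in WT 2, 3, 6 and 9. It had 93.1, 82.0, 64.0, 65.6 and 69.7 CPM in null 7, 14, 15, 18 and 23. The groups did not overlap, and the lowest null tumor, null 15, stood well above the highest WT tumor, WT 2. Means were 34.3 ± 1.52 CPM (SD, n = 4) and 74.9 ± 12.4 CPM (SD, n = 5), and the fitted log2 fold change of null over WT tumors came to 1.13 (SE 0.18, 95% confidence interval 0.73 to 1.52). The gene was chosen from this contrast, so nothing is read from the separation. Over all genes tested, the groups did not overlap with null higher for 3.42%.

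**Figure D1:**
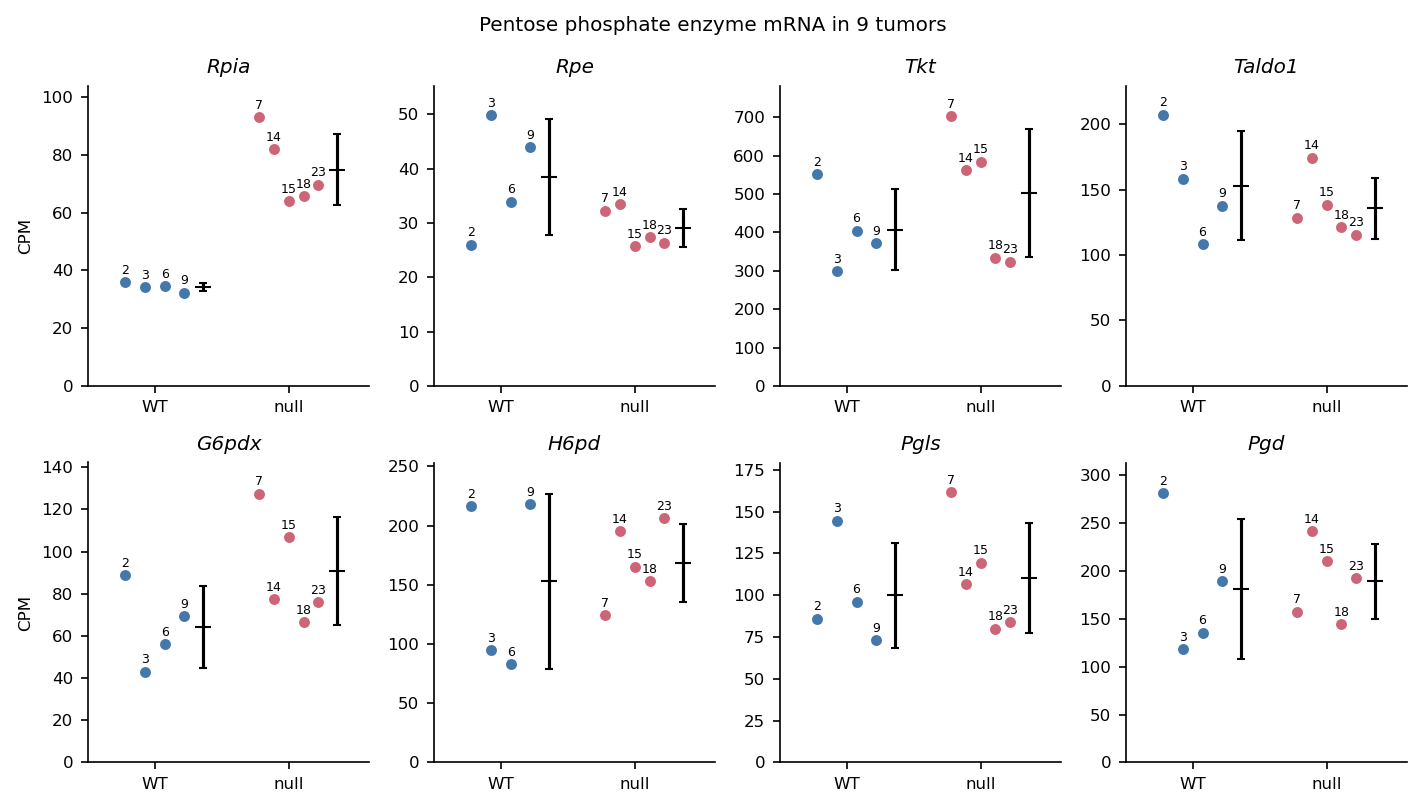
Level in CPM of each of the 8 enzymes on the vertical axis, 1 panel per gene and each starting at 0, in the 4 WT (blue) and 5 null (red) tumors, with the tumor number above each point and mean ± SD as black bars. Rpia sits between 32.3 and 36.0 CPM in WT and between 64.0 and 93.1 CPM in null tumors, while the points of the other 7 enzymes overlap between genotypes.

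The WT tumors lay close together for Rpia. Their coefficient of variation was 4.42%, against 16.6% among the null tumors. Counting error alone gives 3.34% to 5.15% for the estimated counts of Rpia in the WT libraries. In the WT group the coefficients of variation of the other 7 enzymes ran from 26.0% for Tkt to 48.5% for H6pd. A tight WT group is part of what set Rpia apart in this contrast, so its evenness is a description only. Estimated counts of Rpia ran from 377 to 1974 per tumor. No annotated gene overlaps Rpia. No transcript of another gene matched its principal transcript at 90% identity or more over at least 200 bases. That transcript has 1829 bases of an exon length of 5359, and the other exon bases and shorter matches were not assessed.

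Rpe, the epimerase that draws on the same ribulose 5-phosphate, did not follow Rpia. Its levels were 26.0, 49.9, 33.9 and 44.0 CPM in WT 2, 3, 6 and 9, and 32.3, 33.4, 25.8, 27.4 and 26.4 CPM in null 7, 14, 15, 18 and 23. WT 3 and WT 9 were the highest tumors, and WT 2 lay among the null tumors, so the groups overlapped. The log2 fold change was -0.405 (SE 0.22, 95% confidence interval -0.90 to 0.09, edgeR quasi-likelihood test with Benjamini-Hochberg adjusted p = 0.35). The 3′ end of Rpe, a gene on chromosome 1 from 66700831 to 66719805, overlaps Kansl1l on the other strand by 558 bases. Kansl1l had means of 15.5 CPM in WT and 18.1 CPM in null tumors. No source used here says whether the libraries kept strand, so reads of the shared bases may not have been told apart.

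Set against each other, the isomerase and the epimerase stood in opposite order in the 2 genotypes on the scale of CPM per kilobase of exon length. Rpia was 0.81, 0.40, 0.59 and 0.43 times as abundant as Rpe in WT 2, 3, 6 and 9. It was 1.68, 1.43, 1.44, 1.39 and 1.54 times as abundant in null 7, 14, 15, 18 and 23. Every WT tumor had more Rpe than Rpia per kilobase and every null tumor had more Rpia than Rpe, with mean ratios of 0.56 ± 0.19 (SD, n = 4) and 1.49 ± 0.11 (SD, n = 5). Which of the pair is the more abundant depends on the length used. Per kilobase of the principal transcript the ratio was 1.01 to 2.04 in WT and 3.53 to 4.24 in null tumors, so Rpia was then the higher of the pair in each tumor, and the groups still lay apart. Rpia is part of the ratio, so its separation is a description and was not tested.

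**Figure D2:**
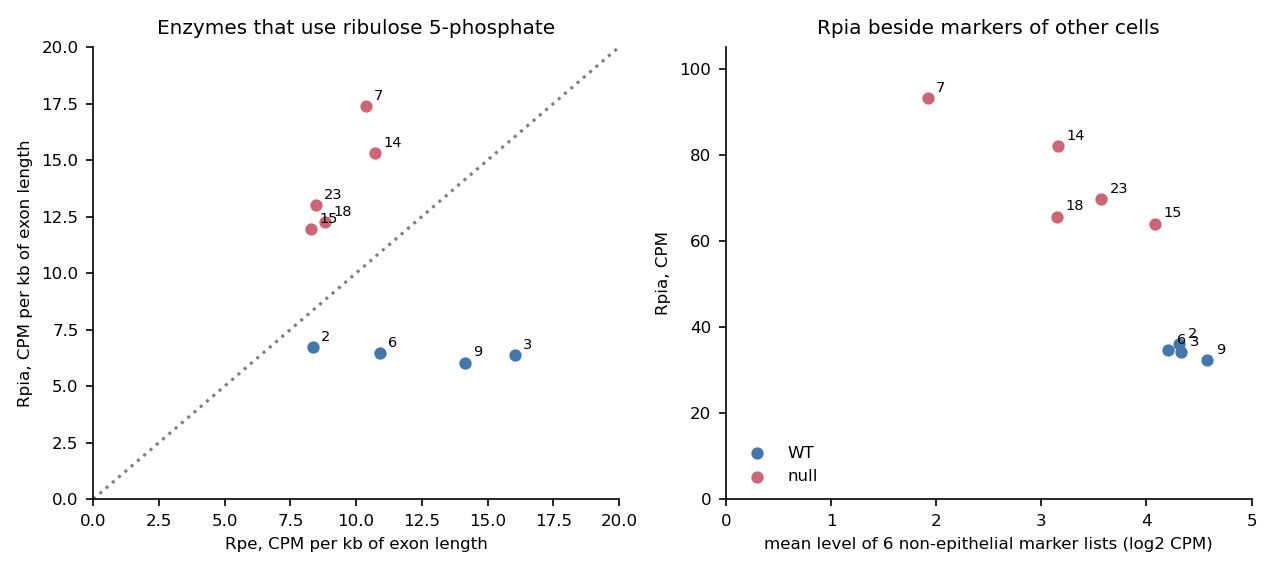
Left, Rpia against Rpe in CPM per kilobase of exon length, with a dotted line where both are equal; the WT tumors lie below it and the null tumors above it. Right, Rpia in CPM against the mean log2 CPM of 6 non-epithelial marker lists, which is 4.21 to 4.58 in WT and 1.92 to 4.08 in null tumors; numbers beside the points are tumor numbers.

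Transketolase and transaldolase, the carbon-shuffling enzymes of the branch, showed no shared direction. Tkt (chromosome 14, 30548359 to 30574720) had 552, 299, 404 and 373 CPM in WT 2, 3, 6 and 9, and 703, 562, 584, 334 and 324 CPM in null 7, 14, 15, 18 and 23. Null 7, 14 and 15 were higher than each WT tumor, while null 18 and 23 lay near the lowest, WT 3. Its log2 fold change was 0.30 (SE 0.30, edgeR adjusted p = 0.599). Taldo1 (chromosome 7, 141392199 to 141402968) had 207, 158, 108 and 138 CPM in the WT tumors and 129, 174, 138, 121 and 116 CPM in the null tumors, in the same order. WT 2 was highest and WT 6 lowest, so the null tumors fell inside the WT range, with a log2 fold change of -0.17 (SE 0.23, edgeR adjusted p = 0.699). A processed pseudogene of Taldo1, Gm17823, matched it at 94.8% over 1016 bases but reached at most 0.26 CPM. The ratio of Tkt to Taldo1 per kilobase of exon length was 0.56 to 1.10 in WT and 0.81 to 1.62 in null tumors.

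In the oxidative branch the first enzyme, glucose-6-phosphate dehydrogenase, had the widest gap in means, and it did not pass the test. G6pdx (chromosome X, 74409483 to 74429194) had 88.8, 43.1, 56.0 and 69.5 CPM in WT 2, 3, 6 and 9, and 128, 77.4, 107, 66.5 and 76.0 CPM in null 7, 14, 15, 18 and 23. Null 7 and null 15 were above every WT tumor, WT 3 and WT 6 were below every null tumor, and the other 5 tumors were mixed. The log2 fold change was 0.50 (SE 0.27, edgeR adjusted p = 0.345), with a 95% confidence interval from 0.93-fold to 2.14-fold. G6pdx overlaps Ikbkg on the other strand over 19712 bases of its span, and Ikbkg had means of 51.3 and 46.3 CPM in WT and null tumors. The retrogene G6pd2, 93.1% identical over 2331 bases, had at most 1 estimated count in any tumor.

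The other oxidative enzymes did not differ beyond the spread between tumors. H6pd, the dehydrogenase of the endoplasmic reticulum (chromosome 4, 149979475 to 150009023), split the WT group: 216 and 218 CPM in WT 2 and WT 9, against 94.8 and 82.7 CPM in WT 3 and WT 6. The null tumors lay between, at 124, 195, 165, 153 and 206 CPM in null 7, 14, 15, 18 and 23. Pgls, the lactonase (chromosome 8, 71592176 to 71601092), had 85.9, 145, 96.2 and 73.0 CPM in the WT tumors and 161, 107, 120, 80.0 and 84.0 CPM in the null tumors. Pgd, which makes the second NADPH and ribulose 5-phosphate (chromosome 4, 149149991 to 149166771), had 282, 118, 136 and 189 CPM in WT and 158, 242, 210.2, 144 and 193 CPM in null tumors. In each of the 3 genes the groups overlapped, and WT 2 and WT 3 stood far apart in H6pd and Pgd. Log2 fold changes were 0.14 (SE 0.33) for H6pd, 0.14 (SE 0.27) for Pgls and 0.06 (SE 0.29) for Pgd, with edgeR adjusted p from 0.797 to 0.924. Pgls shares 3445 bases of its span with Fam129c, which lies on the same strand and had mean levels of 2.84 and 2.77 CPM.

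Of the 7 enzymes other than Rpia, 0 passed the adjusted threshold of 0.05 in edgeR, and 0 had an unadjusted p under 0.05. Over all genes tested, 0.0124% passed the first and 17.7% the second, and the 2 genes called in the whole table were both lower in null tumors and neither was a member. DESeq2 and limma-voom also called none of the 7, and their adjusted p over 20 alternative settings was at least 0.174. For no enzyme of the 7 did the groups fail to overlap, against 6.91% of all genes in either direction (3.42% with null higher, 3.49% with null lower). The intervals do not show that the levels were alike: they reach 1.62-fold for Pgd, 1.95-fold for Tkt and 2.14-fold for G6pdx. The 4 oxidative enzymes had log2 fold changes above 0, with a median of 0.14 against -0.04 over all genes, where 47.8% were above 0. Without WT 6, 2 of the 4 were above 0 and the median was 0.04, and without WT 2 it was 0.36. Without WT 2, G6pdx (0.70) and Rpe (-0.55) had an unadjusted p under 0.05 (edgeR adjusted p = 0.186 and 0.174). In that fit 1786 of 16665 genes were higher and 1955 lower at the unadjusted threshold. G6pdx also met it with the epithelial marker level as a covariate (0.62, edgeR adjusted p = 0.214), where 1354 of 16169 genes were higher. Rpe also met it with upper-quartile scaling (-0.52, edgeR adjusted p = 0.269), where 2038 of 16169 genes were lower. Signs of the small differences turned under alternative settings for Pgd, Pgls, H6pd, Tkt and Taldo1.

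**Figure D3:**
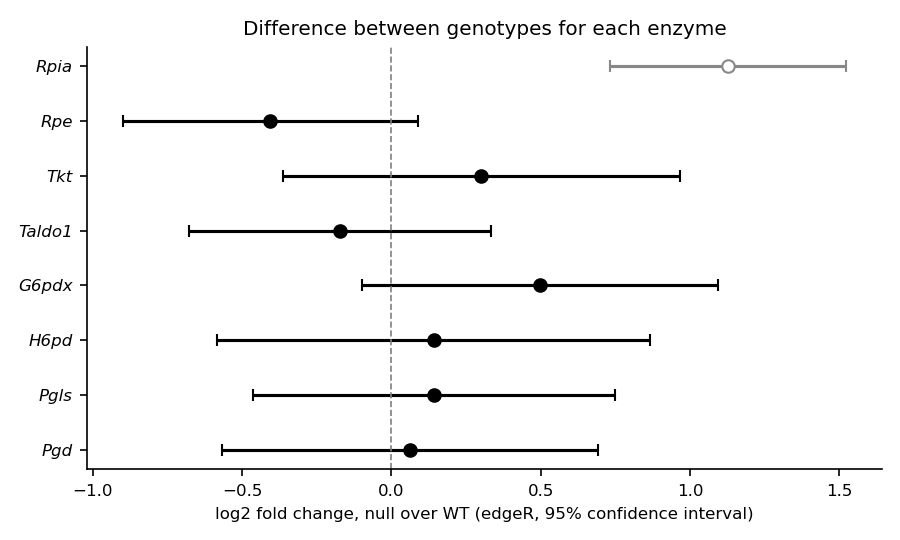
Log2 fold change, null over WT, of each enzyme from the edgeR fit, with its 95% confidence interval; the dashed line marks no difference. The interval of Rpia, drawn as an open point because the gene was chosen by this contrast, runs from 0.73 to 1.52, and those of the other 7 enzymes include 0.

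Per kilobase of exon length, the most abundant enzymes were Taldo1 (median over tumors 63.4 CPM per kilobase) and Tkt (55.0). H6pd (31.6), Pgd (29.4), Pgls (25.5) and G6pdx (24.7) followed, and Rpia (11.9) and Rpe (10.4) were lowest. Ranges over the tumors overlapped between each pair of neighbours in this order. The order depends on the length: per kilobase of coding sequence Rpia had rank 5 from the top, and 1 of 8 enzymes kept its rank. Rpe was lowest by all 3 lengths tried, and Tkt was among the top 2 by each. Oxidative enzymes made up 39.5% to 45.7% of the summed level of the 8 enzymes per kilobase of exon in WT tumors and 41.2% to 49.5% in null tumors, with overlap. Rpia made up 2.09% to 3.18% of that sum in WT and 4.06% to 5.65% in null tumors. G6pdx over Pgd was 0.66 to 0.86 in WT and 0.67 to 1.69 in null tumors, with null 7 highest.

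Tumor null 7 had the highest Rpia, G6pdx, Pgls and Tkt, and WT 2 the highest Pgd and Taldo1. WT 3 had the lowest G6pdx, Pgd and Tkt and the highest Rpe. Over all genes, too, null 7 stood farthest from the rest on principal component 1 (29.6% of variance) and WT 3 on component 2 (26.4%). Libraries held 10145830 to 27596832 estimated counts, with WT 2 the shallowest. Scrib mRNA overlapped between the groups, from 44.1 to 88.6 CPM in WT and from 36.9 to 102 CPM in null tumors (edgeR log2 fold change -0.23, adjusted p = 0.712), so directions here are between tumors as labelled. Defining epithelial markers were present in each tumor, with summed levels of 8615 to 12410 CPM in WT and 7302 to 13790 CPM in null tumors, and all 10 were detected. Acinar markers summed to 20.01 to 570.1 CPM in WT and 7.26 to 331 CPM in null tumors.

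Tested markers of 6 non-epithelial cell types had negative log2 fold changes, and none passed the adjusted threshold in edgeR. All 50 markers of fibroblasts, endothelium, macrophages, neutrophils, T cells and B and plasma cells were detected, and 47 of the 47 tested had log2 fold changes below 0, while 47.8% of all genes were above 0. The smallest edgeR adjusted p among them was 0.201. DESeq2 called 413 of the 18423 genes to which it gave an adjusted p lower. Among these markers it called Mrc1, Fcgr1, Mmp9, Egfl7, Cd79b and Mzb1 lower (DESeq2 adjusted p from 0.0117 to 0.0478), and none of the fibroblast or T cell markers. It also called the adipocyte markers Fabp4 and Adipoq lower. Outside the 6 lists, 1 of 3 adipocyte and 4 of 5 islet markers tested in edgeR were above 0. The 50 markers summed to 5090 to 12290 CPM in WT and 967 to 6250 CPM in null tumors, which overlapped. The mean log2 CPM of the 6 lists was 4.31, 4.33, 4.21 and 4.58 in WT 2, 3, 6 and 9, and 1.92, 3.16, 4.08, 3.15 and 3.57 in null 7, 14, 15, 18 and 23, and in this mean the groups did not overlap. Null 7 had the lowest marker level and the highest Rpia. Null 15 and WT 6, whose marker levels of 4.08 and 4.21 were next to each other, had 64.0 and 34.6 CPM of Rpia. With the marker level as a covariate the log2 fold change of Rpia was 0.82. Rpia was chosen for groups that do not overlap, so any pair of a WT and a null tumor would differ this way. Nothing is read from the pair or from the fit. Genotype and marker level cannot be told apart in these 9 tumors, nor can fewer cells of a type and less RNA per cell in bulk tissue.

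Sex and tumor identifier were also set beside Rpia. Among female tumors, called from Xist and Y-linked transcripts, Rpia had 32.3 to 36.0 CPM in WT and 64.0 to 82.0 CPM in null tumors; the males were WT 3 with 34.2 CPM and null 7 and null 18 with 93.1 and 65.6 CPM. Among tumors whose identifier in the labels was below 20000, WT 2 had 36.0 CPM and null 7, 14 and 15 had 64.0 to 93.1 CPM. Among the others, WT 3, 6 and 9 had 32.3 to 34.6 CPM and null 18 and 23 had 65.6 and 69.7 CPM. As Rpia was chosen for groups that do not overlap, these ranges could not overlap in any subset of the tumors, and nothing is read from them.

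The 5 genes whose pattern over the 9 tumors was most like that of Rpia were Hps1, Ankrd26, Tut1, Ints5 and Ybx3. Likeness was measured by the SD, over the tumors, of the log2 ratio of a gene to Rpia among 12407 genes, and ran from 0.16 for Hps1 to 0.22 for Ybx3; the SD of Rpia itself was 0.61. Hps1, a lysosome-related organelle factor on chromosome 19, had 25.0 to 29.9 CPM in WT and 43.2 to 74.8 CPM in null tumors. Ankrd26, a centriolar protein gene on chromosome 6, had 5.15 to 7.68 and 11.7 to 18.1 CPM. Tut1, a terminal uridylyltransferase of U6 RNA, and Ints5, a subunit of the Integrator complex, lie 56.0 kb apart on chromosome 19, with 23.3 to 31.7 and 39.5 to 64.9 CPM for Tut1 and 25.2 to 38.0 and 48.9 to 81.4 CPM for Ints5. Ybx3, a cold-shock domain RNA-binding protein gene on chromosome 6, had 250.5 to 301 and 441 to 884 CPM. In each of the 5 null 7 was the highest tumor and the groups did not overlap, which follows from choosing genes that track Rpia. With Pearson's correlation as the measure, 3 of the 5 were chosen again.

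**Figure D4:**
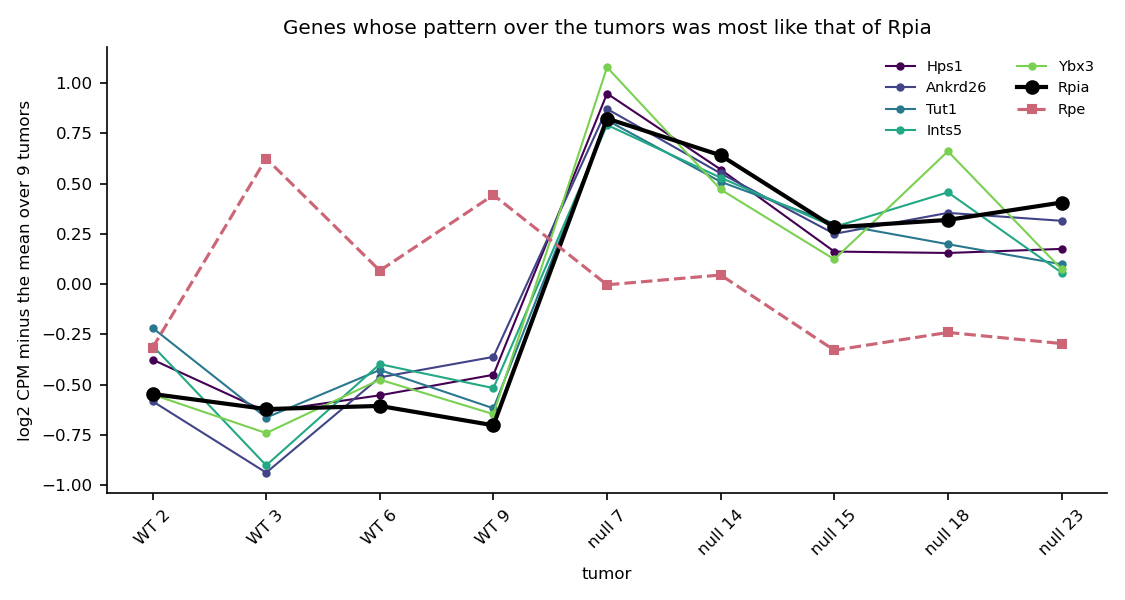
Log2 CPM minus its mean over the 9 tumors, on the vertical axis, for Rpia (black), the 5 genes with the most similar pattern and Rpe (dashed), by tumor. Lines only join points of one gene; the 5 genes track Rpia with WT tumors below 0 and null tumors above 0, and Rpe is highest in WT 3 and WT 9.

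None of the other pentose phosphate enzymes was among these 5. The nearest, G6pdx, had an SD of 0.48 and rank 1354 of the 12407 genes. Tkt (0.57, rank 2805), Pgls (0.61, rank 3573), Pgd (0.67, rank 4862), H6pd (0.72, rank 5602) and Taldo1 (0.73, rank 5728) followed, and Rpe came last (0.83, rank 7322).

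Among the genes next to Rpia on chromosome 6, Eif2ak3 and Igkc had counts, and in both the groups overlapped. Eif2ak3, the stress kinase PERK, lies 52.3 kb away and had 28.8 to 75.9 CPM in WT and 45.4 to 78.0 CPM in null tumors (log2 fold change 0.37, SE 0.31, edgeR adjusted p = 0.53). Igkc, the immunoglobulin kappa constant gene 38.8 kb away on the other side, had 11.3 to 215 CPM in WT and 0.16 to 23.7 CPM in null tumors (log2 fold change -2.94, SE 1.10, edgeR adjusted p = 0.236), and is itself a plasma cell marker. Tex37 and Foxi3, within 250 kb, had 0 counts in each tumor.

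Transketolase-like genes were at the floor: Tktl1 had at most 1 estimated count in a tumor and Tktl2 had 0 in all. Of 11 paralogs and side enzymes, including these, 8 were tested, and 0 passed the adjusted threshold. Unadjusted, 1 was higher and 1 lower, beside 7.64% and 10.0% of all genes. Xylb, xylulokinase, which feeds xylulose 5-phosphate into the pathway, had 5.01 ± 0.90 CPM (SD, n = 4) in WT and 10.6 ± 4.07 CPM (SD, n = 5) in null tumors (edgeR adjusted p = 0.221; DESeq2 adjusted p = 0.0478). Rbks, ribokinase, had 3.07 ± 1.02 and 1.43 ± 0.72 CPM (edgeR adjusted p = 0.273), and Idnk, a gluconokinase, had 21.4 ± 6.28 and 15.8 ± 1.59 CPM (edgeR adjusted p = 0.34). The list had 3 members above 0 (47.8% of all genes) and 5 below, with a median log2 fold change of -0.30. It was -0.08 without WT 3 and -0.15 without null 7.

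Ribose 5-phosphate, the product of Rpia, is turned into PRPP and from there into nucleotides. None of the 5 tested PRPP synthesis genes had an unadjusted p under 0.05, and their median log2 fold change was -0.06. Prps1 and Prps2, the PRPP synthetases, had log2 fold changes of -0.40 and 0.14, and their partner Prpsap1 had 0.35 (edgeR adjusted p from 0.387 to 0.804). Of 13 purine synthesis genes 0 passed, 10 were above 0 (47.8% of all genes), and the median was 0.23. Gart, which carries out several steps of ring synthesis, had 78.5 ± 2.45 CPM in WT and 115 ± 36.1 CPM in null tumors without overlap (edgeR adjusted p = 0.254). Impdh2, the gateway to guanine nucleotides, had 113 ± 17.1 and 185 ± 78.4 CPM, and the salvage enzyme Hprt had 150.2 ± 90.9 and 79.5 ± 17.3 CPM (edgeR adjusted p = 0.25 and 0.246). Atic and Gmps, named after their values were seen, had log2 fold changes of 0.53 and 0.47. Unadjusted, 3 of the 13 were higher and 1 lower, beside 7.64% and 10.0% of all genes. Null 7 had the highest Gart and Impdh2. The unadjusted count of higher genes was 0 without null 7, without WT 9 and without both WT 3 and null 7. It was also 0 with upper-quartile scaling, in limma-voom, and with sex, identifier range or non-epithelial marker level as a covariate. The count was 5, with 2 lower, with the epithelial level as a covariate. It stayed at 3 with RLE scaling, no filter, a stricter filter, DESeq2 and without null 23, and was 1 or 2 otherwise. Over all genes, 1083 of 16171 were higher at that threshold without null 7, and 518 of 16169 with the non-epithelial level. With the non-epithelial level as a covariate, 6 of the 13 were above 0 and the median was -0.007, against 0.03 over all genes.

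Pyrimidine and deoxynucleotide genes had no common direction, with 9 of 16 above 0 (47.8% of all genes), a median of 0.03 and 0 past the threshold. Cmpk1, which phosphorylates UMP and CMP, had 65.6 to 96.4 CPM in WT and 40.9 to 58.5 CPM in null tumors without overlap (log2 fold change -0.78, SE 0.19, edgeR adjusted p = 0.197; DESeq2 adjusted p = 0.023). Cad, the first enzymes of pyrimidine synthesis in one protein, had 39.9 ± 16.4 and 87.0 ± 51.4 CPM, with 178 CPM in null 7 (edgeR adjusted p = 0.233). Rrm2, a ribonucleotide reductase subunit, had 56.4 ± 7.88 and 39.1 ± 13.5 CPM (edgeR adjusted p = 0.334).

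Of 15 glycolytic enzymes that share sugars with the pathway, 12 were above 0, beside 47.8% of all genes, with a median log2 fold change of 0.34, and 0 passed the adjusted threshold in edgeR. Hk2, a hexokinase that makes glucose 6-phosphate, had 50.5 to 147 CPM in WT and 173 to 403 CPM in null tumors without overlap (log2 fold change 1.28, SE 0.36, edgeR adjusted p = 0.204; DESeq2 adjusted p = 0.0447). Hk1 had 114 ± 49.4 and 183 ± 35.1 CPM, and Gapdh had 2772 ± 1092 and 4606 ± 392 CPM (edgeR adjusted p = 0.281 and 0.26). These 3 were the glycolytic genes with an unadjusted p under 0.05, a direction and threshold that 7.64% of all genes met. The count was 6 without WT 3, with a median of 0.52, and 1 without each of WT 6 and null 7, 14, 18 and 23. It was also 1 with upper-quartile scaling and with the identifier range, non-epithelial level or epithelial level as a covariate. The count was 5 in limma-voom, 4 without both WT 3 and null 7, and 2 or 3 in the other settings. Over all genes, 985 of 16675 were higher at that threshold without WT 3, and 518 of 16169 with the non-epithelial level.

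NADPH can also be made outside the pathway. Of 11 such genes 7 were above 0 (47.8% of all genes), with a median of 0.08 and 0 past the threshold. Idh1, the cytosolic NADP isocitrate dehydrogenase, had 167 to 250.4 CPM in WT and 56.1 to 138 CPM in null tumors without overlap (log2 fold change -1.09, SE 0.27, edgeR adjusted p = 0.201; DESeq2 adjusted p = 0.0246). Mthfd2, a mitochondrial folate enzyme, lay the other way, at 17.5 to 23.5 and 24.8 to 88.7 CPM (edgeR adjusted p = 0.221), and its cytosolic relative Mthfd1 had 52.7 ± 11.5 and 84.3 ± 38.4 CPM (edgeR adjusted p = 0.282).

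Of 13 tested NADPH users 6 were above 0 (47.8% of all genes) and 7 below. Their median was -0.36, and it was -0.03 without WT 2, 0.01 without WT 3 and -0.11 without WT 9. Unadjusted, 1 was higher and 3 lower, beside 7.64% and 10.0% of all genes. Fasn, fatty acid synthase, had 121 ± 76.7 and 241.5 ± 28.5 CPM, and the carbonyl reductase gene Cbr1 had 77.9 ± 39.7 and 36.3 ± 9.00 CPM (edgeR adjusted p = 0.237 and 0.208). Cyba, a subunit of the phagocyte oxidase named after its values were seen, had 555 ± 498 and 226 ± 80.5 CPM (edgeR adjusted p = 0.239). Macrophage markers summed to 787 to 1929 CPM in WT and 427.8 to 1006 CPM in null tumors, which overlapped. A link between them and Cyba was not tested. Nqo1, a quinone reductase and NRF2 target, was low throughout, at 1.24 to 3.52 CPM in WT and 0.47 to 0.81 CPM in null tumors without overlap (log2 fold change -1.74, SE 0.43, edgeR adjusted p = 0.197; DESeq2 adjusted p = 0.00802). Of 15 NRF2 targets outside the pathway 10 were below 0, while 47.8% of all genes were above 0. Their median was -0.10, with 0 past the threshold in edgeR. Gclc, the catalytic subunit of glutathione synthesis, had 86.4 ± 23.9 and 47.4 ± 18.5 CPM and the transferase gene Gsta4 had 899.5 ± 857 and 284 ± 130 CPM (edgeR adjusted p = 0.224 and 0.233). Osgin1 and Abcc1, named after their values were seen, had log2 fold changes of 0.83 and 0.61. With the non-epithelial marker level as a covariate, 9 of the 15 NRF2 targets were above 0 and the median was 0.19, against 0.03 over all genes in that fit.

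**Figure D5:**
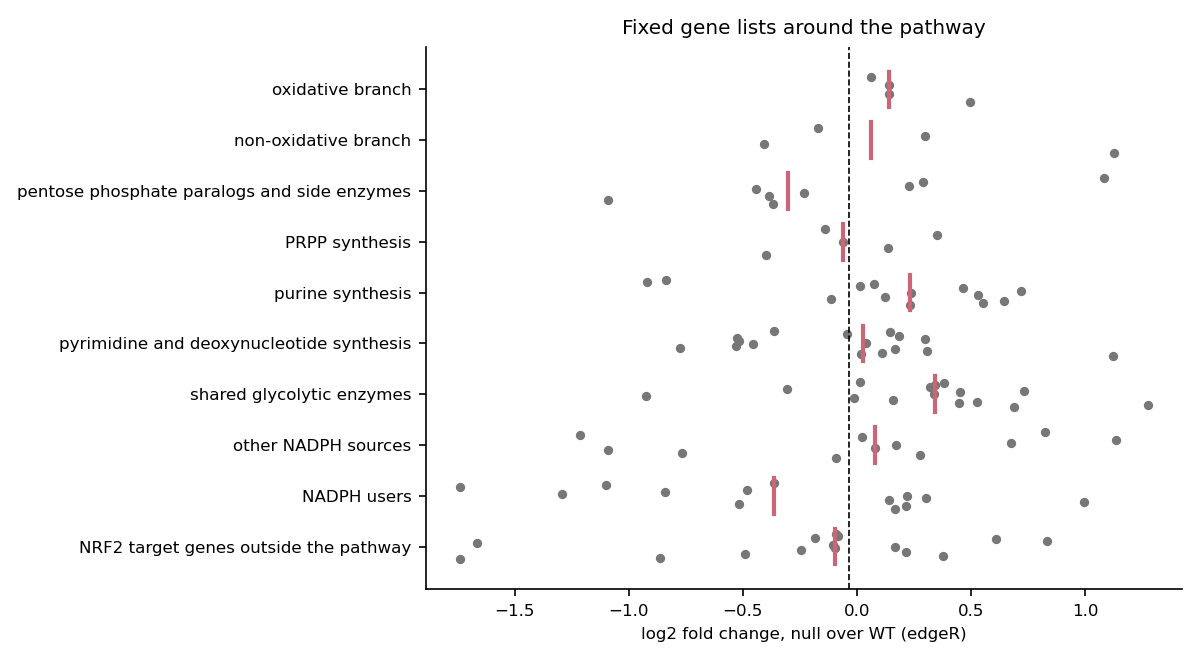
Log2 fold change, null over WT, of each tested gene in 10 gene lists (grey points, spread vertically only for visibility), with the list median in red and the median of all genes, -0.04, as a dashed line. The lists were chosen with earlier results of these data known. Rpia is the right-most point of the non-oxidative branch, and the medians of the lists run from -0.36 to 0.34.

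Of 12 genes known to regulate the pathway, 6 were above 0 (47.8% of all genes) and 6 below, and 0 passed. Nfe2l2, which encodes NRF2, had 179 ± 32.5 CPM in WT and 165 ± 12.4 CPM in null tumors, and its inhibitor Keap1 had 57.7 ± 10.7 and 73.2 ± 8.75 CPM (edgeR adjusted p = 0.764 and 0.34). Myc had 90.7 to 183 CPM in WT and 157 to 201 CPM in null tumors other than null 7, which had 1032 CPM (log2 fold change 1.53, SE 0.62, edgeR adjusted p = 0.25). Mtor had 32.8 ± 15.2 and 58.5 ± 14.6 CPM, and Trp53 had 33.2 ± 27.8 and 18.1 ± 4.27 CPM (edgeR adjusted p = 0.245 and 0.32). Proliferation genes had 11 of 12 members above 0, beside 47.8% of all genes, a median of 0.44 and 0 past the threshold. Without null 14 the median was 0.17 with 8 of 12 above 0, and limma-voom gave 0.24 and 7 of 12. Foxm1, a mitotic transcription factor, had 16.8 to 35.7 and 36.9 to 81.6 CPM without overlap, Mcm3 had 68.0 ± 16.0 and 106 ± 21.9 CPM, and Top2a had 82.3 ± 25.8 and 135 ± 41.4 CPM (edgeR adjusted p from 0.22 to 0.264). Plk1, named after its values were seen, had a log2 fold change of 0.82. Unadjusted, 4 of the 12 were higher, beside 7.64% of all genes, and 2 were without WT 3, WT 9, null 14 or null 15. That count was 1 in limma-voom and with the identifier range or the non-epithelial level as a covariate. It was 5 without WT 2 and 2 to 4 in the other settings.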

How the data were processed

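mRNA of 9 frozen whole tumors was measured after polyA selection, per the labels' protocols. The authors deposited 1 table of estimated counts per gene and tumor, not normalized. The submitters' processing notes name Salmon 1.4.0, DESeq 2 and the builds GRCm38 and mm10; strand and annotation release are not given in the sources used here. Before testing, values were rounded to integers, a shift of at most 0.5. Genes with at least 10 counts by edgeR's filterByExpr (minimum total 15) were tested by quasi-likelihood in edgeR 4.0.16 (R 4.3.3) on TMM-scaled libraries, with Benjamini-Hochberg adjustment over all 16169 genes. Standard errors are the size of the log2 fold change over the square root of F. CPM is over the scaled library, and log2 CPM used a prior count of 2. The test was tested on simulated data.

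Symbols, positions and lengths came from GENCODE M21 (GRCm38), and copies were sought with blastn 2.17.0. The members and the 22 gene lists were chosen with earlier results of these data known. Genes named were the members, Scrib, G6pd2, Tktl1 and Tktl2, the 5 genes most like Rpia, up to 3 genes of smallest p from each list of other than cell types, the neighbours of Rpia, Myc, Nfe2l2 and Keap1, and 1 gene that is not reported here; others are marked where they appear. Alternatives were other scalings and filters, DESeq2 1.42.0, limma-voom (limma 3.58.1), covariates, and tumors left out. Separate mice are not stated in the labels, and p-values measure only the variation among these tumors. The common biological coefficient of variation was 0.494, and depth was 10145830 to 27596832 counts.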

Additional observations from a re-analysis of the deposited data

Results flagged for a closer look

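In 10 of 96 groups of tumors checked, over 53 genes, 1 tumor lay farther from the rest of its genotype than Dixon's test allows. Chance would flag about 1 in 20 independent groups of normally distributed values. The genes share the same tumors and many were named for small p, so no excess is read from the count. None of the 8 pentose phosphate enzymes was among them. In 7 of the 10 the tumor was null 7, which also had the highest Rpia. It had 178.2 CPM of the pyrimidine gene Cad, against 54.5 to 73.3 CPM in the other null tumors, and 179.4 CPM of the purine gene Gart, against 92.3 to 104.7 CPM. Impdh2 stood at 320.7 CPM against 131 to 185 CPM. The folate enzymes stood at 151.5 CPM against 57.5 to 78.5 CPM for Mthfd1 and at 88.7 CPM against 24.8 to 42.0 CPM for Mthfd2. Myc was at 1032 CPM in null 7 against 157 to 201 CPM. Scrib, at 102.2 CPM, was higher in null 7 than in the other null tumors, which had 36.9 to 55.4 CPM. It was also above the highest WT tumor, at 88.6 CPM. Null 7 had the lowest non-epithelial marker level, a mean log2 CPM of 1.92, and a relation to Scrib was not tested.

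The other outlying values were in other tumors. Hk1 was low in null 15, at 120.8 CPM against 188 to 203 CPM in the other null tumors. Top2a was low in WT 3, at 43.9 CPM against 92.1 to 99.2 CPM in the other WT tumors. Trp53 was high in WT 2, at 74.5 CPM against 16.6 to 25.0 CPM.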

How the results depend on the processing

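The log2 fold change of Rpia stayed between 0.82 and 1.19 over 20 alternatives and between 1.05 and 1.18 with each tumor left out; the lowest value, 0.819, came with the non-epithelial marker level as a covariate. The sign turned for H6pd without WT 6 (-0.062), for Tkt with the identifier range as a covariate (-0.017) and for Taldo1 without WT 2 (0.014). It turned for Pgls with the identifier range (-0.008), with the non-epithelial level (-0.216) and without null 7 (-0.03). It turned for Pgd with upper-quartile scaling (-0.008), the identifier range (-0.073) and the epithelial level (-0.034), and without WT 3 (-0.054), WT 6 (-0.052) or null 14 (-0.039). Rpe stayed between -0.56 and -0.21 and G6pdx between 0.23 and 0.70. With each tumor left out, H6pd ran from -0.06 to 0.365, Pgls from -0.03 to 0.41, Pgd from -0.05 to 0.36, Tkt from 0.17 to 0.49 and Taldo1 from -0.305 to 0.01. The causes were not tested.

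Over all genes the 2 calls became 7 with no filter, 1 with sex as a covariate, 0 with the identifier range or the non-epithelial level as a covariate, 0 without both WT 3 and null 7, 625 with DESeq2 (212 higher, 413 lower) and 6 with limma-voom; with each tumor left out they ranged from 0 to 1. With 0 calls, unadjusted p was under 0.05 for 770 higher and 1006 lower genes with the identifier range, 518 and 446 with the non-epithelial level, and 792 and 1099 without both tumors. Upper-quartile scaling moved the median log2 fold change of all genes from -0.03 to -0.13. In the order of levels, 1 enzyme of 8 kept its rank per kilobase of coding length and 2 per kilobase of the principal transcript, an alternative chosen after seeing the data. Of the 5 genes most like Rpia, 3 were kept with Pearson's correlation and 5 with a prior count of 0.5. No paired analysis was possible because the groups share no replicate number.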

Other observations

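Nnt, the mitochondrial transhydrogenase that makes NADPH, was chosen after its values were seen. It had 24.7, 9.71, 17.9 and 6.77 CPM in WT 2, 3, 6 and 9, and 24.2, 14.1, 35.5 and 9.31 CPM in null 7, 14, 15 and 18. In null 23 it had 0 counts, where 3 counts would be 0.106 CPM, a limit that covers counting error only. The other 8 tumors held 113 to 1036 estimated counts.

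Several genes named here lie on chromosome 6 with Rpia, a grouping made after the values were seen and not tested; they were named for small p in their lists or for likeness to Rpia, which shapes their signs. They are Hk2 (log2 fold change 1.28), Mthfd2 (1.14), Ankrd26 (1.06), Gapdh (0.73), Foxm1 (0.97) and Ybx3 (1.13), beside the neighbours Eif2ak3 (0.37) and Igkc (-2.94).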
